A study of Mus musculus with 5 samples.

Results

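NADPH oxidase subunits were followed in single cells of the mouse aortic arch. The genes were Cybb, Cyba, Ncf1, Ncf4, Rac2 and Nox4, chosen by name and function and not by their levels. Earlier results of these data were known when they were chosen. They make up 6 of the 26189 genes in the deposited tables, and all 6 were found in both tables. Their levels were described across cell types that were gated with marker genes other than these 6, then between phagocyte-like and vascular wall cells, and between the 2 tag pools.

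The arch sample holds live cells sorted for CD45, the surface protein of blood-derived cells, from female mice labelled as 12 weeks old. Wild-type C57BL/6J mice and mice homozygous for a targeted allele of serum amyloid A3, Saa3tm1.1(KOMP)Vlcg on C57BL/6N, were tagged and loaded on a BD Rhapsody cartridge together. Every mouse had received an ssAAV8 vector with a liver promoter (hAAT), given to bring on atherosclerosis, and then a Western diet for 18 weeks, so there is no lean or vector-free control. The series also holds 4 samples of bone-marrow-derived macrophages, 2 of them given 100 ng/mL SAA3 for 24 h, which were not analysed here. The design text calls the genotypes littermates, while the genotype label gives them different substrains. How many mice went into a pool is not given in the labels, and each genotype has 1 pool.

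NADPH oxidases pass electrons from NADPH across a membrane to oxygen, which yields superoxide or hydrogen peroxide. In phagocytes the membrane core is a pair of proteins, gp91phox from Cybb and p22phox from Cyba. It is switched on when cytosolic proteins, among them p47phox (Ncf1) and p40phox (Ncf4), move to it with a Rac GTPase, such as Rac1 or Rac2. Nox4, a relative of gp91phox found in vascular smooth muscle and other mesenchymal cells, also pairs with p22phox but needs none of the cytosolic proteins and releases mainly hydrogen peroxide.

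The targeted gene went against its label. Saa3 stood at 148 CPM (a gene's share of all molecules in those cells, scaled to 1000000) in the pool labelled wild-type and at 242 CPM in the pool labelled Saa3-/-. In the latter, 1124 of 1268 Saa3 molecules lay in 2 cells, and leaving out those molecules gave 27.5 CPM, against 95.6 CPM in the other pool treated alike. The names "pool labelled wild-type" and "pool labelled Saa3-/-" are therefore used throughout. After cells with over 25% mitochondrial molecules were left out, the pools held 833 and 823 cells, which averaged 8751 and 6357 molecules, and no cell index was shared by the pools. Marker gating placed 1401 of 1656 cells in 14 types, of which 8 had at least 20 cells in each pool. Despite the CD45 sort, 331 cells carried vascular wall markers. Ptprc, which encodes CD45, stood at 133 and 72.4 CPM in fibroblast-like and at 98.9 and 137 CPM in smooth-muscle-like cells, against 788 and 758 CPM in macrophage-like cells.

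The 6 genes lie on 5 chromosomes of GRCm38. Cybb spans chrX:9435252-9487771, Cyba chr8:122424776-122432930 and Ncf1 chr5:134220053-134229625, all on the minus strand. Ncf4 spans chr15:78244801-78262580 on the plus strand, and Rac2 lies on the same chromosome at chr15:78559167-78572783 on the minus strand. Nox4 spans chr7:87246096-87398710 on the plus strand. All 8155 bases of Cyba lie inside Gm20388, a gene model on the opposite strand with 3169 molecules in the kept cells, and Ncf1 shares 4303 bases with Gtf2ird2, also on the opposite strand, with 94 molecules. Whether strand was used in counting is not given in the sources used here, so reads of these pairs cannot be told apart with certainty. The RefSeq promoter table (GRCm38.p6) held 4 of the 6 genes, not Ncf4 or Rac2. The 150 bases before the start are shown for those 4, because Nox4 and the phagocyte genes differed most in where they were found. Capitals mark GGGCGG (the GC box, as CCGCCC on the other strand) and CCAAT (the CCAAT box), searched on both strands.
Cybb promoter, chrX:9469325-9469474, minus strand: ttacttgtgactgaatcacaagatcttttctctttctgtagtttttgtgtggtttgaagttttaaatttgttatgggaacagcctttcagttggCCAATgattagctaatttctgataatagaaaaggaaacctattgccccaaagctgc
Cyba promoter, chr8:122432941-122433090, minus strand: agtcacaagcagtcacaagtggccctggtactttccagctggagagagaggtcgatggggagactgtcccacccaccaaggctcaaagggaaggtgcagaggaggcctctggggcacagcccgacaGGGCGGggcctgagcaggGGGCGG
Ncf1 promoter, chr5:134229626-134229775, minus strand: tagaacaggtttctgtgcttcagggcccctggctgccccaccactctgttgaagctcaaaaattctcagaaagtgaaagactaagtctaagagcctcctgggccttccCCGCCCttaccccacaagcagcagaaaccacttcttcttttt
Nox4 promoter, chr7:87246499-87246648, plus strand: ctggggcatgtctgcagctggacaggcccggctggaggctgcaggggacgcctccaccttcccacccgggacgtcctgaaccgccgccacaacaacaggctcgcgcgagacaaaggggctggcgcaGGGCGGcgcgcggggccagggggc

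Over the 250 bases before the start, G and C made up 34% of the Cybb promoter, 54.4% of that of Ncf1, 60% of that of Cyba and 67.2% of that of Nox4, against a median of 52.4% over 32851 promoters. Only 3.87% of those promoters had a lower share than Cybb, while 86.5% had a lower share than Nox4. GGGCGG was found 2 times in the Cyba promoter and 1 time each in those of Ncf1 and Nox4, and 32.7% of all promoters held it. CCAAT was found 1 time, in the Cybb promoter, and 33.8% of all promoters held it. GAGGAA, a form of the core of sites of the myeloid factor PU.1, was in none of the 4 windows and in 23.3% of all promoters. Other forms of that core were not searched, so this does not show that a promoter lacks PU.1 sites. The RefSeq starts of Cybb and Nox4 used here lie inside the spans of the gene models given above.

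Cybb, the catalytic subunit of the phagocyte enzyme, was highest in monocyte-like and macrophage-like cells. In monocyte-like cells it stood at 2109 CPM (95% Poisson interval 1926 to 2305) in the pool labelled wild-type and at 1808 CPM (1597 to 2039) in the pool labelled Saa3-/-. In macrophage-like cells it stood at 1251 CPM (1206 to 1298) and 1258 CPM (1194 to 1324), so the monocyte-like level was 1.69 and 1.44 times the macrophage-like level. All intervals given with CPM here are exact and cover counting error only. B-cell-like cells came next with 545 and 560 CPM, ahead of dendritic-cell-like cells with 299 and 307 CPM. No 2 neighbours among these 4 types overlapped between pools. Below them, fibroblast-like cells (127 and 42.3 CPM), T-cell-like cells (82.9 and 46.5 CPM) and smooth-muscle-like cells (67.5 and 44.2 CPM) overlapped with one another, and thymocyte-like cells stood lowest at 41.5 and 32.7 CPM.

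Cyba, whose product is the partner of both gp91phox and Nox4, was the most widely found of the membrane genes, with a molecule in 1050 of 1656 cells against 835 for Cybb and 389 for Nox4. It stood at 584 and 564 CPM in monocyte-like, 518 and 596 CPM in macrophage-like and 593 and 418 CPM in dendritic-cell-like cells, and neighbours among these 3 types overlapped. B-cell-like cells had 361 and 198 CPM and T-cell-like cells 174 and 150 CPM. Unlike Cybb, Cyba did not fall to a few percent of the macrophage-like level in the wall. Fibroblast-like cells held 127 and 112 CPM and smooth-muscle-like cells 117 and 101 CPM. The smooth-muscle-like values overlapped with the thymocyte-like level of 109 and 112 CPM, and the fibroblast-like values lay just above it.

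The cytosolic genes were spread over phagocytes and B cells. Ncf1, the organizer p47phox, stood at 205 CPM (187 to 225) and 186 CPM (162 to 213) in macrophage-like cells and at 160 and 122 CPM in monocyte-like cells. Of the 37 monocyte-like Ncf1 molecules in the pool labelled wild-type, 17 lay in 1 cell, and a gate margin of 0.75 gave 80.0 and 143 CPM. It stood at 123 and 138 CPM in B-cell-like cells, overlapping with the monocyte-like values, and at 88.5 and 91.1 CPM in dendritic-cell-like cells. The other 4 of the 8 types held at most 16.1 CPM. Ncf4, whose product p40phox binds phosphoinositides of the phagosome, reached 147 CPM (102 to 205) and 109 CPM (62.2 to 177) in monocyte-like and 134 and 70.0 CPM in B-cell-like cells. Both ranges overlapped, and the B-cell-like range also took in the macrophage-like values of 77.8 and 76.7 CPM. T-cell-like cells held 39.0 and 30.4 CPM of Ncf4, while the wall types and thymocyte-like cells held 2.73 to 13.9 CPM.

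Rac2, the blood-cell Rac GTPase, was found across the blood-derived types and was not highest in macrophage- or monocyte-like cells. Among the 8 larger types T-cell-like cells were highest with 900 CPM (827 to 978) and 694 CPM (626 to 766), followed by B-cell-like cells with 754 and 545 CPM and monocyte-like cells with 579 and 625 CPM. Thymocyte-like (446 and 534 CPM) and macrophage-like cells (483 and 340 CPM) overlapped, and dendritic-cell-like cells held 244 and 294 CPM. In the wall it stood at 66.1 and 39.6 CPM in fibroblast-like and 38.6 and 56.8 CPM in smooth-muscle-like cells.

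Nox4 had the opposite layout. Smooth-muscle-like cells stood at 667 CPM in each pool (612 to 725 and 595 to 745), and fibroblast-like cells at 222 CPM (193 to 254) and 214 CPM (182 to 251). The smooth-muscle-like level was 3.01 and 3.11 times the fibroblast-like level. In the other 6 types the level was at most 35.4 CPM, which was the value of thymocyte-like cells in the pool labelled Saa3-/-. There, 6 of the 13 Nox4 molecules lay in 1 cell, and no Nox4 molecule was counted in the 24 thymocyte-like cells of the pool labelled wild-type, which allows up to 15.5 CPM at 3 molecules.

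**Figure D1:**
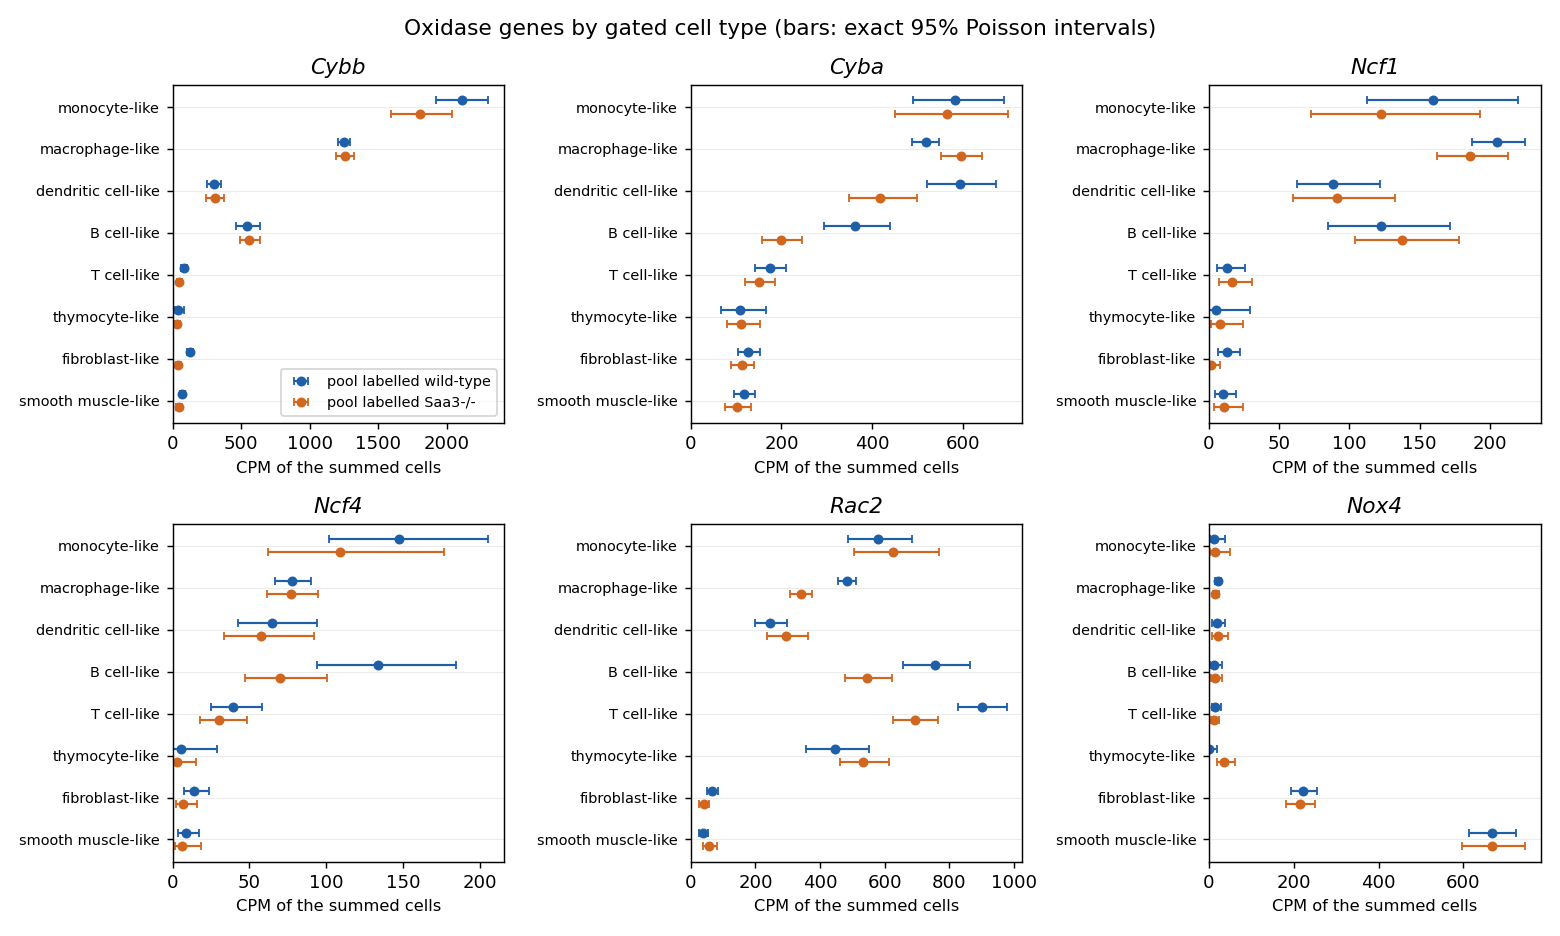
Level of each oxidase gene (x axis, CPM of the summed cells, a scale of its own in each panel) in the 8 cell types that had 20 cells or more in both pools; points are pools and bars are exact 95% Poisson intervals. Cybb peaks at 2109 and 1808 CPM in monocyte-like cells, Rac2 at 900 and 694 CPM in T-cell-like cells and Nox4 at 667 CPM in smooth-muscle-like cells of both pools.

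The remaining 6 gated types were small, and several of their values rested on 1 cell. Neutrophil-like cells (7 and 16 cells) held Ncf1 at 502 CPM (241 to 924) and 747 CPM (549 to 994), from 10 and 47 molecules, and Rac2 at 954 and 1399 CPM. Both genes stood higher there than in macrophage-like cells of the same pool. Cybb in neutrophil-like cells gave 50.2 and 588 CPM, but 32 of 37 molecules in the pool labelled Saa3-/- lay in 1 cell. NK-like cells (12 and 16 cells) held Rac2 at 812 and 904 CPM, which overlapped with T-cell-like cells. Their Cybb value of 219 CPM in the pool labelled wild-type came from 17 molecules, of which 15 lay in 1 cell. Type 2 innate-lymphoid-like cells gave 21.0 and 379 CPM of Cybb, the latter from 25 molecules with 11 in 1 cell. Endothelial-like cells (8 and 7) gave 289 and 541 CPM of Cybb from 13 and 43 molecules, of which 9 and 26 lay in 1 cell. Mast-like (6 and 7 cells) and plasma-like cells (6 and 2 cells) were fewer still.

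RNA of lysed cells can reach the wells of other cells, so the members were set beside macrophage transcripts in cells that should lack them. In smooth-muscle-like cells, the complement genes C1qa, C1qb and C1qc stood at 2.88% to 6.61% of their macrophage-like level, and Lyz2, a lysozyme, at 7.03% and 4.90%. Cybb (5.40% and 3.51%) and Ncf1 (4.70% and 5.65%) lay inside that range. Whether these molecules are free RNA was not tested, and no doublets were called. Ncf4 stood at 10.9% and 8.23%, from 7 and 3 molecules, too few to tell from that range. Cyba stood at 22.6% and 17.0% of its macrophage-like level, above each of the macrophage transcripts in both pools. Cyba was found in many types, so its place depends on the reference. Against its level in the whole pool it stood at 32.2% and 31.7%. On that scale the T cell gene Cd3e was close, at 27.2% and 29.85%. The B cell gene Cd79a (19.2% and 6.07%) and Lyz2 (13.8% and 13.2%) were lower. The share of smooth-muscle-like cells with a Cyba molecule at equal depth, 17.2% and 16.4%, can also hold free RNA.

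In fibroblast-like cells the same complement genes stood at 4.19% to 6.97% of their macrophage-like level. Cybb lay above that range in the pool labelled wild-type (10.1%) and below it in the pool labelled Saa3-/- (3.37%). Cyba stood at 24.5% and 18.8% and Ncf1 at 6.23% and 0.733%. Of 331 wall cells, 33 held at least 10 C1q molecules. Without such cells, a limit chosen after seeing the data, Cybb in fibroblast-like cells stood at 73.9 and 43.1 CPM, Cyba at 113 and 113 CPM and Nox4 at 252 and 277 CPM.

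B-cell-like cells were the non-myeloid type with most Cybb. Their Cybb level was 43.6% and 44.5% of the macrophage-like level in the 2 pools, while C1qa stood at 17.4% and 8.98%, C1qb at 18.0% and 8.63% and Lyz2 at 34.1% and 10.3%. Ncf1 stood at 59.8% and 73.9% and Ncf4 at 172% and 91.2%. Without the 5 and 4 B-cell-like cells that held at least 10 C1q molecules, Cybb was 488 and 548 CPM, Ncf1 59.0 and 140 CPM and Cyba 242 and 199 CPM. The Ncf1 value of the pool labelled wild-type thus rested in large part on those cells, with 11 of 34 molecules in the rest, whereas the Cybb level there moved less, from 545 to 488 CPM. In T-cell-like cells, Cybb (6.62% and 3.70%) was near the macrophage transcripts (2.35% to 6.09%), Ncf1 (6.33% and 8.64%, from 8 and 9 molecules) was somewhat above them, and Ncf4 (50.1% and 39.6%) and Cyba (33.6% and 25.2%) were far above them.

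The same comparison was made for Nox4 against smooth muscle transcripts. In macrophage-like cells Nox4 stood at 3.13% and 2.20% of its smooth-muscle-like level, where Acta2 stood at 2.93% and 3.25%, Myh11 at 1.52% and 1.79% and Tagln at 1.19% or less. In B-cell-like cells it stood at 1.62% and 2.17%, against 0.901% to 3.15% for the 3 contractile genes. The counting interval of Nox4 in macrophage-like cells (15.4 to 27.8 and 8.54 to 23.5 CPM) spans the Acta2 share and, in the pool labelled wild-type, lies above the shares of Myh11 and Tagln. The origin of these molecules was not tested. In fibroblast-like cells it stood at 33.3% and 32.1% of the smooth-muscle-like level, against 2.04% to 6.04% for the contractile genes. Rac2 in smooth-muscle-like cells (4.29% and 8.19% of the T-cell-like level) was close to Cd3e, a T cell gene, at 4.54% and 6.52%. In fibroblast-like cells it stood at 7.34% and 5.71%, against 3.70% and 4.23% for Cd3e. The place of Rac2 in smooth-muscle-like cells depends on the reference. It was at 7.99% and 16.7% of the macrophage-like level, above the C1q genes (2.88% to 6.61%). Of the whole-pool level it was at 9.32% and 15.1%, below Cd3e at 27.2% and 29.85%.

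**Figure D2:**
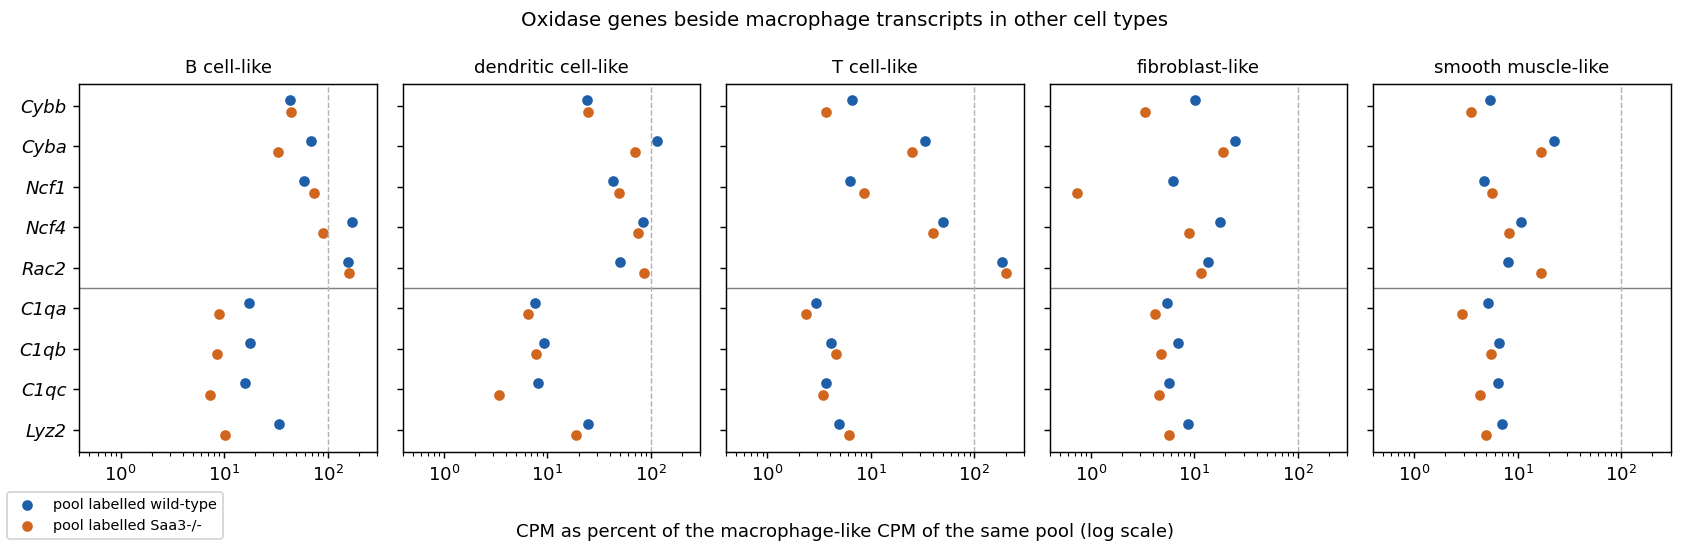
Level of 5 oxidase genes (above the line) and of the macrophage transcripts C1qa, C1qb, C1qc and Lyz2 (below the line) in 5 cell types, as percent of the macrophage-like CPM of the same pool on a log scale; points are pools and the dashed line is 100%. In smooth-muscle-like cells Cybb (5.40% and 3.51%) lies among the macrophage transcripts and Cyba (22.6% and 17.0%) above them, while in B-cell-like cells Cybb lies at 43.6% and 44.5%.

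Phagocyte-like cells were then compared with wall cells. The 5 genes of the phagocyte oxidase were higher in phagocyte-like cells and Nox4 was lower. The first class joined macrophage-, monocyte- and neutrophil-like cells (402 in all), the second fibroblast-, smooth-muscle- and endothelial-like cells (331), and molecules were summed per class and pool. edgeR's quasi-likelihood test with the pool as a block used these 4 sums, which leave 1 residual degree of freedom from 2 pools of unlike label. The fit with the block took its spread wholly from the value shared over genes (infinite prior degrees of freedom), so its very small p-values do not rest on replicates of a gene. Without the block the prior degrees of freedom were 7.44. Of 11079 genes tested, 55.8% were called at an adjusted p (Benjamini-Hochberg) under 0.05, 27.3% higher and 28.5% lower in phagocyte-like cells. That all 6 members were called is thus to be read against a call for most genes, and the sizes and the values in each pool say more than the count.

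Cybb gave 3305 and 1762 molecules in phagocyte-like cells, or 1321 and 1286 CPM, and 188 and 95 molecules in wall cells, or 104 and 73.8 CPM. Its log2 fold change was 3.93 (SE 0.15, edgeR adjusted p 4.41e-140, and 1.66e-07 without the block). Both phagocyte sums lay more than 10-fold above both wall sums. Ncf1 gave 509 and 281 molecules (204 and 205 CPM) against 21 and 15 (11.6 and 11.7 CPM), a log2 fold change of 4.18 (SE 0.21, edgeR adjusted p 8.21e-82, and 1.4e-07 without the block). Ncf4 gave 212 and 118 molecules (84.7 and 86.1 CPM) against 22 and 9 (12.1 and 6.99 CPM), a log2 fold change of 3.15 (SE 0.26, edgeR adjusted p 2.67e-32, and 4.79e-06 without the block). For both cytosolic genes the classes did not overlap. The wall sums mix unlike types. In the pool labelled Saa3-/-, 7 endothelial-like cells held 43 of the 95 Cybb and 9 of the 15 Ncf1 wall molecules. Of those Cybb molecules, 26 lay in 1 cell. The 8 endothelial-like cells of the other pool held 13 of 188 and 1 of 21. The 2 wall sums of Ncf4 lay apart, and its log2 ratio within a pool was 2.77 and 3.55.

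Cyba had the smallest difference of the 5. It gave 1309 and 801 molecules (523 and 585 CPM) in phagocyte-like and 242 and 154 molecules (134 and 120 CPM) in wall cells. The log2 fold change was 2.17 (SE 0.16, edgeR adjusted p 3.1e-40, and 1.04e-06 without the block). Rac2 gave 496 and 419 CPM against 54.1 and 60.6 CPM, a log2 fold change of 3.05 (SE 0.18, edgeR adjusted p 7.26e-63, and 4.3e-07 without the block). Nox4 gave 50 and 19 molecules (20.0 and 13.9 CPM) in phagocyte-like cells and 763 and 477 molecules (421 and 370 CPM) in wall cells. Its log2 fold change was -4.47 (SE 0.20, edgeR adjusted p 1.04e-106, and 1.58e-07 without the block). Without wall cells that held at least 10 C1q molecules the log2 fold changes of Cybb and Ncf1 were 4.39 and 4.76.

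Other genes of the pathway were given by lists. All 5 further parts and partners of the phagocyte oxidase reported here were called higher in phagocyte-like cells, beside 27.3% of all genes tested. Their median log2 fold change was 1.45 against -0.00 over all genes tested. Arhgdib, a GDP-dissociation inhibitor of small GTPases in blood cells, led with 2.67 (edgeR adjusted p 6.04e-56), followed by Hvcn1, the proton channel that balances charge, with 1.69 and Rap1a, a small GTPase, with 1.45. Rac1, the general Rac GTPase, was at 0.67, well below the 3.05 of Rac2. Cybc1, a chaperone of the membrane pair, was at 0.80 and was not called by DESeq2 (adjusted p 0.372). Of 8 other oxidase genes and partners in the tables only Poldip2, a p22phox-binding protein, had counts enough for the test, and it was not called (-0.44, edgeR adjusted p 0.293). Nox1, Nox3, Duox1, Noxo1 and Duoxa1 had 17, 3, 10, 34 and 1 molecules over both classes, and Duox2 and Noxa1 had none.

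Among 6 upstream activators, 5 were called higher and 1 lower in phagocyte-like cells, beside 27.3% and 28.5% of all genes tested. Vav1, a Rac exchange factor, stood at a log2 fold change of 3.67, the kinase Syk at 3.41, the p47phox kinases Prkcb at 3.06 and Prkcd at 2.12, and Dock2, another Rac exchange factor, at 2.74. Prkca was the lower gene (-0.89), a call that DESeq2 did not make (adjusted p 0.315). Of 3 transcription factors, Spi1, which encodes PU.1, was higher by 3.34 and Irf8 by 3.15, while Irf1 was not called. Of 7 genes that supply NADPH, 3 were higher, 2 lower and 2 not called, beside 55.8% called among all genes, and DESeq2 did not call G6pdx (adjusted p 0.076) or Nnt (0.34). Pgd of the pentose phosphate pathway was higher by 1.97 and malic enzyme Me1 stood at -4.50, with 10 and 3 molecules in phagocyte-like and 133 and 116 in wall cells.

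Antioxidant genes went both ways, with 9 of 19 higher, 4 lower and 6 not called, and a median log2 fold change of 0.37. DESeq2 did not make 5 of these 13 calls, those of Sod2, Prdx5, Gclm, Gpx4 and Nqo1, and 55.8% of all genes were called by edgeR. Hmox1, which degrades heme, was higher by 3.21, Nfe2l2, the factor NRF2, by 1.97 and Txnrd1, a thioredoxin reductase, by 1.86. Sod3, the secreted superoxide dismutase, was lower in phagocyte-like cells at -3.82 (edgeR adjusted p 4.19e-177), with 420 and 212 molecules there against 4270 and 3044 in wall cells. The secreted peroxidase Gpx3 was at -2.90. The cytosolic superoxide dismutase Sod1 was not called.

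**Figure D3:**
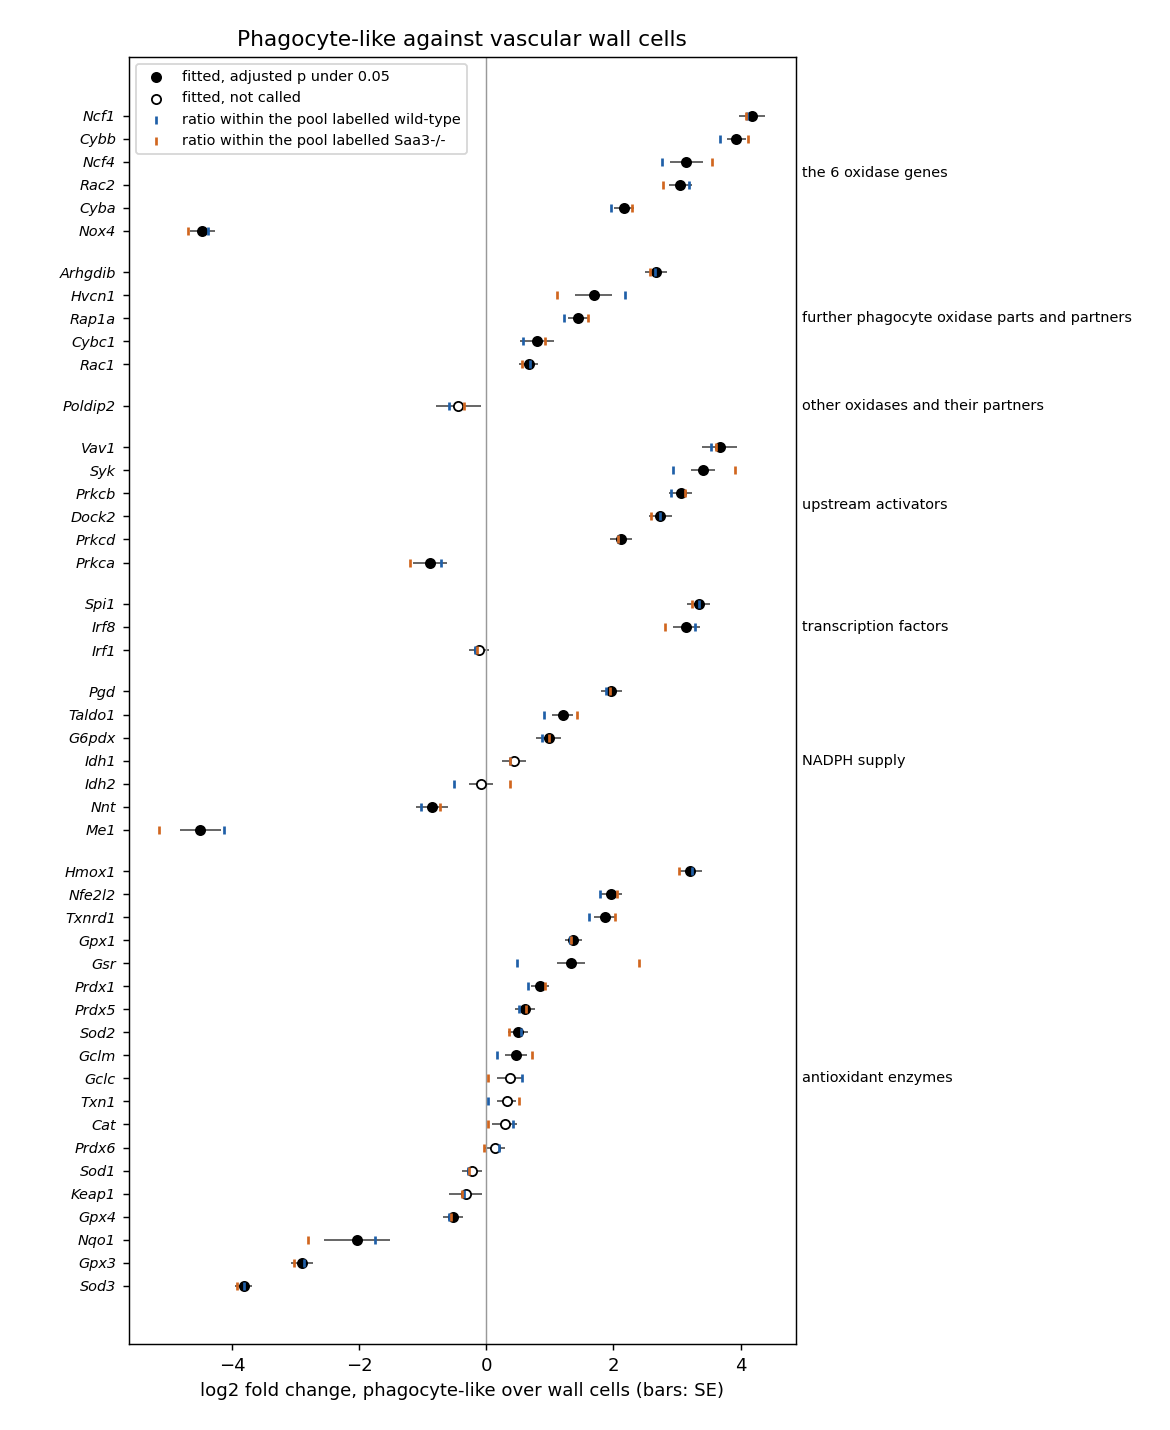
Log2 fold change of phagocyte-like over wall cells (x axis) for the 6 oxidase genes and the listed pathway genes that were tested and are reported; circles are edgeR estimates with SE bars, filled where the adjusted p was under 0.05, and ticks are the ratios within each pool. Ncf1 (4.18) and Cybb (3.93) lead, and Nox4 (-4.47), Me1 (-4.50) and Sod3 (-3.82) lie at the other end.

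Within macrophage-like cells the members were unevenly detected per cell. A median cell held 12 and 8 Cybb molecules in the 2 pools, 4 and 3 of Cyba, 2 and 1 of Ncf1 and 3 and 2 of Rac2. Cybb molecules were found in 98.9% of macrophage-like cells of the pool labelled wild-type and 93.8% of those of the pool labelled Saa3-/-. When each cell was thinned to 2000 molecules, the shares became 84.2% and 82.7%, against 11.1% and 3.28% in smooth-muscle-like cells. For Ncf1 the thinned shares were 33.7% and 33.9% in macrophage-like cells, against 1.01% and 4.92% in smooth-muscle-like cells. The gap between pools in the unthinned shares of Ncf1 (78.2% and 61.2%) was not seen at equal depth.

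Joint detection depended on depth to a greater degree. Cybb and Cyba were found together in 92.0% and 84.5% of macrophage-like cells, and Cybb, Cyba, Ncf1 and Ncf4 together in 42.6% (80 of 188 cells) and 21.7% (28 of 129). At 2000 molecules per cell the 4 genes were found together in 2 cells of each pool, or 1.09% (exact interval 0.132% to 3.87%) and 1.57% (0.191% to 5.57%), too few to show or to leave out a gap like that at full depth. Nox4 and Cyba, the pair that would form the Nox4 enzyme, were found together in 42.6% and 40.0% of smooth-muscle-like and in 45.8% and 47.8% of fibroblast-like cells. After thinning the pair was found in 10.1% and 11.5% of smooth-muscle-like and in 2.44% and 7.81% of fibroblast-like cells, so the order of the 2 types at full depth did not hold at equal depth. In 7 and 5 smooth-muscle-like cells none of the 6 genes had a molecule, and in macrophage-like cells 0 of 188 and 0 of 129 cells lacked all 6, which allows a share of up to 1.60% and 2.33%. Nox4 itself was found in 85.2% and 86.2% of smooth-muscle-like cells, and in 69.7% and 60.7% after thinning, against 4.35% and 2.36% of macrophage-like cells.

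**Figure D4:**
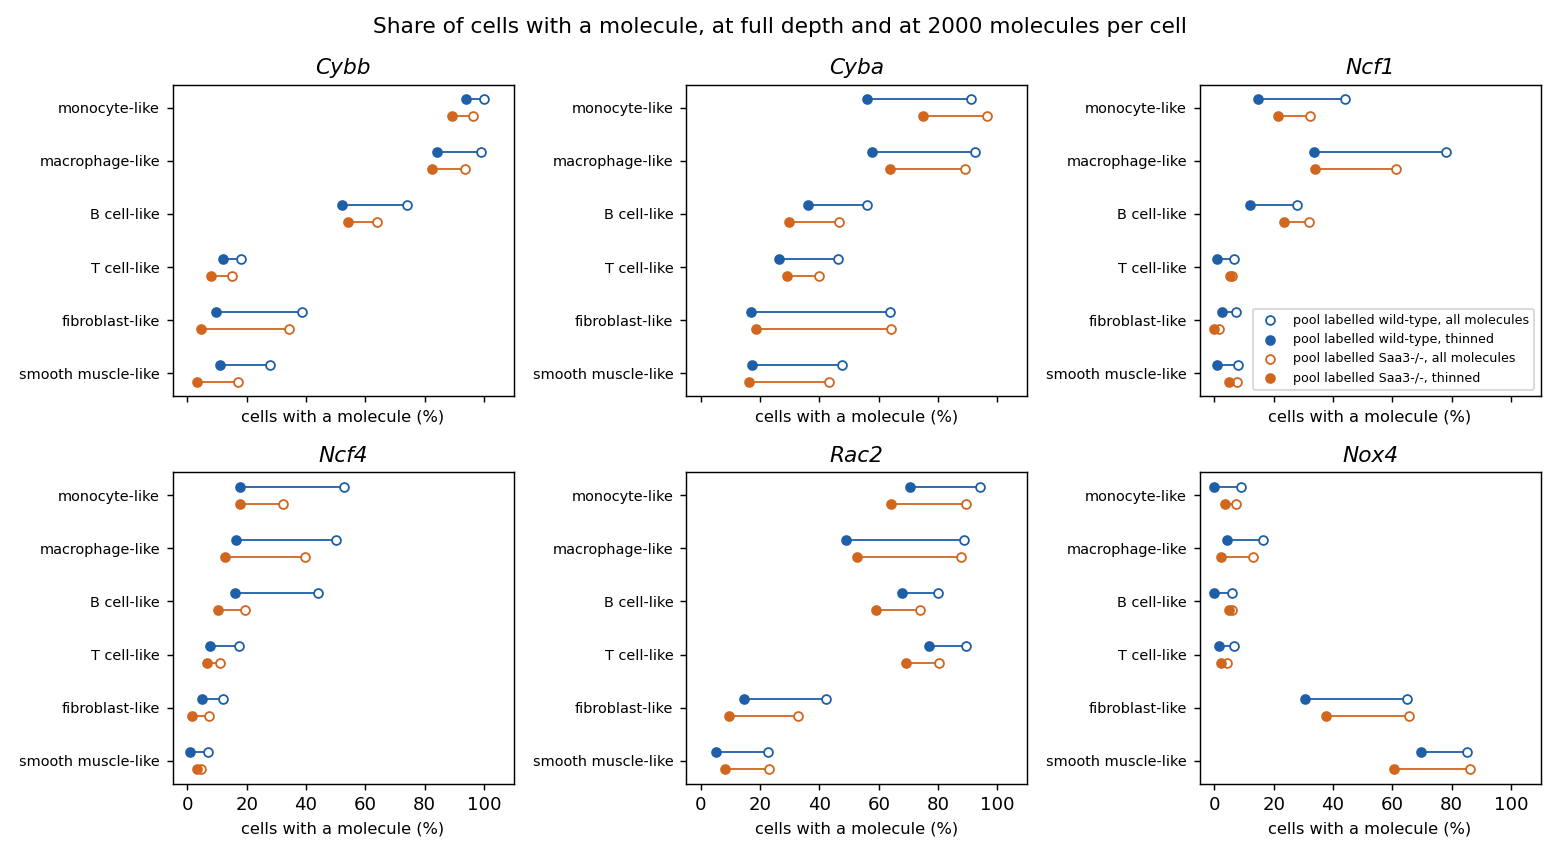
Share of cells with at least 1 molecule of each oxidase gene (x axis, percent) in 6 cell types; open circles use all molecules, filled circles use cells thinned to 2000 molecules, and colours are pools. Cybb stays above 80% in macrophage-like cells of both pools after thinning (84.2% and 82.7%), while Ncf1 and Ncf4 drop to 33.9% or less.

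Macrophage-like cells were also cut by a score of marker genes into a resident-type range (Lyve1, Folr2 and others; 82 and 37 cells), a lipid-laden range (Trem2, Gpnmb and others; 71 and 72 cells) and cells between (35 and 20). These are ranges of a score, not types. Cybb stood at 1094 and 1284 CPM in the resident-type and at 1415 and 1225 CPM in the lipid-laden range, which overlap over the pools. Ncf1 stood at 214 and 219 CPM and at 218 and 177 CPM, and Ncf4 at 88.2 and 99.3 CPM and at 69.1 and 71.8 CPM. Cyba and Rac2 spread most between pools in the resident-type range. Cyba stood at 515 CPM (470 to 563) and 315 CPM (254 to 386), and in the lipid-laden range at 544 CPM (497 to 594) and 742 CPM (680 to 807). Rac2 stood at 550 CPM (504 to 600) and 223 CPM (172 to 284) in the resident-type range and at 377 CPM (339 to 419) and 369 CPM (326 to 415) in the lipid-laden range. With 1 pool per label these differences have no test.

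The pools were compared within the 6 types with 30 cells or more on both sides. With 1 pool per label there is no replicate and no test, and a gene was counted as past 2-fold when it had at least 50 molecules and the ratio of its levels exceeded that size. In macrophage-like cells 2.08% of 7358 genes were past 2-fold and none of the 6 members was. Cybb stood at 1251 and 1258 CPM, a log2 ratio (pool labelled Saa3-/- divided by the wild-type-labelled pool) of 0.01 (95% counting interval -0.08 to 0.10). The ratio was 0.20 for Cyba, -0.14 for Ncf1 and -0.02 for Ncf4. Cybb, Cyba, Ncf1 and Ncf4 thus differed little between pools in the type where they were best counted, taken as a whole. Within the resident-type range Cyba (515 and 315 CPM) and Rac2 (550 and 223 CPM) lay further apart. In the lipid-laden range Cyba went the other way (544 and 742 CPM) and Rac2 stood at 377 and 369 CPM. Rac2 was at -0.51 (-0.68 to -0.34), from 483 and 340 CPM, but at -0.03 after thinning and at -0.30 when every cell had the same weight.

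In smooth-muscle-like cells, where 1.96% of genes were past 2-fold, Nox4 had a log2 ratio of 0.00 (-0.20 to 0.20), with 553 and 317 molecules. In fibroblast-like cells it was at -0.05 (-0.36 to 0.26). In B-cell-like cells (6.83% past 2-fold) Cybb was at 0.04 (-0.26 to 0.34), while Cyba was at -0.87 (-1.31 to -0.43) and Ncf4 at -0.93 (-1.69 to -0.19). C1qa in these cells stood at 17.4% and 8.98% of the macrophage-like level. Without the 5 and 4 B-cell-like cells that held at least 10 C1q molecules, the ratio of Cyba was -0.29 (-0.83 to 0.28) and that of Ncf4 -0.76 (-1.66 to 0.17), while Ncf1, at a ratio of 0.16 over all these cells, stood past 2-fold at 59.0 and 140 CPM from 11 and 55 molecules. In dendritic-cell-like cells (4.74% past 2-fold) Cyba was at -0.50 (-0.83 to -0.19), and at -0.06 after thinning. T-cell-like cells (2.95% past 2-fold) had Rac2 at -0.38 (-0.57 to -0.19) and Cybb at -0.82 (-1.57 to -0.13), the latter from 51 and 26 molecules and at -0.01 with a gate margin of 0.75.

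Over all 6 types, 26 of the 36 combinations of member and type had at least 50 molecules, and 1 was past 2-fold. It was Cybb in fibroblast-like cells, where 4.38% of genes were past 2-fold. There were 119 molecules, or 127 CPM (105 to 152), in the pool labelled wild-type and 31, or 42.3 CPM (28.8 to 60.1), in the other, a log2 ratio of -1.57. Of the 119 molecules, 46 lay in 1 cell. The ratio was -1.48 after thinning. It was within 2-fold when every cell had the same weight (-0.94), when types were taken from clusters (-0.97), and without the 11 and 11 fibroblast-like cells that held at least 10 C1q molecules (-0.75, with 53 and 19 molecules). C1qb moved the same way at 6.97% and 4.79% of its macrophage-like level. For 10 of the 26 combinations the counting interval left out 0, and 9 of these were lower in the pool labelled Saa3-/-, the pool with fewer molecules per cell. The share of all genes with such an interval was not counted, so this is not a result about the members. The part of depth in that direction was not tested. Thinning, given above for single ratios only, is a random draw that gives each cell the same weight, so it cannot show that part.

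**Figure D5:**
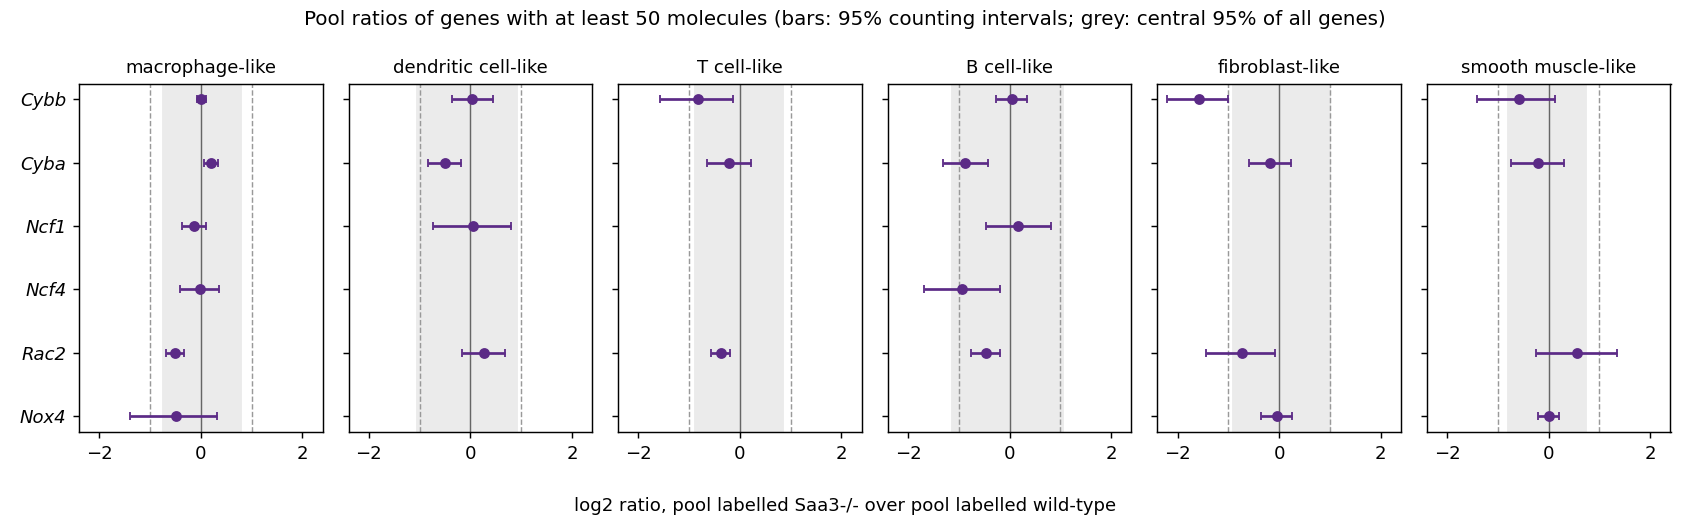
Log2 ratio between pools (x axis, above 0 where the pool labelled Saa3-/- was higher) for members with at least 50 molecules in 6 cell types; bars are 95% counting intervals, dashed lines mark 2-fold and grey bands hold the central 95% of all genes of that type with at least 50 molecules. Cybb in macrophage-like cells lies at 0.01 and Nox4 in smooth-muscle-like cells at 0.00, and Cybb in fibroblast-like cells (-1.57) is the 1 member past 2-fold.

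The profiles of Cybb, Cyba, Ncf1 and Ncf4 over cell types resembled one another. That of Rac2 resembled them less, and that of Nox4 ran the other way. Across 17 combinations of type and pool with at least 20 cells, the Pearson r of log2(CPM + 10) was 0.95 between Cybb and Ncf1 and between 0.86 and 0.89 for Cyba with Cybb, Ncf1 and Ncf4. Rac2 had r of 0.34 with Cybb, 0.44 with Ncf1, 0.45 with Cyba, 0.58 with Ncf4 and -0.91 with Nox4. Nox4 had r between -0.56 and -0.36 with Cybb, Cyba, Ncf1 and Ncf4. These r describe points that share libraries and free RNA. Among all genes with at least 200 molecules, Nfam1 (0.98) and Ptprj (0.96) were among the 3 most like Cybb, and Ptprj (0.97) and Ly86 (0.96) among the 3 most like Ncf1. Spi1 (0.98) and Ctss (0.97) were most like Cyba, and Pik3ap1 (0.97) and Lyn (0.94) most like Ncf4. Rac2 was most like Ptprc (0.97), the gene of CD45, and Dock2 (0.96). Nox4 was most like Ptgis (0.99), Hspb8 (0.98) and Eln (0.98), the gene of elastin.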

How the data were processed

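Counts of molecules were deposited, made by the authors with the BD Rhapsody WTA pipeline 1.11.1 on GRCm38 and GENCODE release 19, per the file headers. They are counts of molecules per gene and cell, with a table for each sample tag, and no normalization is named there. The submitters' processing notes name R 4.3.1 and Seurat 4.3.0, and their role is not given in the sources used here. The genotype of a tag is known only from how the tables are named. A deposited table of tag calls holds 2401 putative cells: 889 and 854 are in the count tables, 11 are tag multiplets and 647 undetermined. Doublets within a pool were not called.

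Cells with at most 25% mitochondrial molecules were kept, which removed 56 and 31. A cell took the type with the highest mean z-score of its markers, with at least 2 markers found and a margin of 0.25 to the next type; 255 cells stayed ungated. Molecules were summed per type and pool, with exact 95% Poisson intervals for levels and exact Clopper-Pearson intervals for shares, which cover counting error only; 0 is bounded by 3 counts. Depth was 7289593 and 5231922 molecules in the pools. For thinning, 18 and 26 cells under 2000 molecules were left out. Phagocyte-like and wall sums were tested with edgeR 4.0.16 in R 4.3.3 (TMM factors, filterByExpr, pool as block). The pools pair the classes because each pool gave both; the correlation of their deviations was 0.02. Simulated counts for that comparison (10846 genes) gave 199 of 200 changed genes recovered and 11 of 10646 unchanged genes called. They were drawn with the same spread for every gene, no pool effect and changes only in genes with many molecules. All changes had the same large size, so recovery of smaller ones was not tried. These rates therefore do not show how the test behaves with 2 real pools of unlike label. Pool ratios used a pseudocount of 0.5 molecule. DESeq2 1.42.0, scanpy 1.11.5 (Leiden clusters), other cell filters, margins, count limits, scalings and weights were alternatives. Positions are from GENCODE release 21 on GRCm38. Named genes are the 6 members, the listed pathway genes at least 2-fold apart with most molecules, and the 3 genes most alike to each member; other list genes, and the examples outside this rule, were named after their values were seen. A listed gene and an agent are not reported here. Members and lists were chosen with earlier results of these data known, so no p-value is adjusted over a list alone.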

Additional observations from a re-analysis of the deposited data

How the results depend on the processing

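In the comparison of phagocyte-like with wall cells, all 6 members kept their direction and stayed under an adjusted p of 0.05 in edgeR or DESeq2 under each alternative that gave a test; in each pool on its own, which gives no test and no count of called genes, they kept their direction. Over the tested alternatives, the log2 fold changes ranged from 3.73 to 4.39 for Cybb, 1.91 to 2.41 for Cyba, 3.86 to 4.76 for Ncf1, 2.64 to 3.37 for Ncf4, 2.94 to 3.22 for Rac2 and -4.80 to -4.20 for Nox4. The count of called genes was 6180 in edgeR with the pool as replicate block and 5801 without that pairing. Both edgeR counts were out of 11079 genes tested. The count fell to 3134 of 12889 genes tested with DESeq2, and the cause was not tested. After thinning it was 3297 of 6491, as fewer genes were tested.

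The counts of genes past 2-fold between pools moved in 21 of 60 alternatives. At full depth they were 153 in macrophage-like, 122 in dendritic-cell-like, 132 in T-cell-like, 182 in B-cell-like, 237 in fibroblast-like and 83 in smooth-muscle-like cells. Counted afresh after thinning, where fewer genes reach 50 molecules, they were 46, 10, 38, 32, 19 and 19 in that order. Whether these were among the genes past 2-fold at full depth was not counted. In the same order of types, a minimum of 20 molecules gave 521, 546, 548, 673, 684 and 499, and a minimum of 100 gave 60, 39, 33, 56, 103 and 19. In B-cell-like cells a margin of 0.75 gave 85 and clusters gave 113, and in smooth-muscle-like cells equal cell weight gave 136. Joint detection of 4 members in macrophage-like cells fell from 42.6% and 21.7% to 1.09% and 1.57% after thinning. Of the other values, 22 pool ratios of members moved and 232 did not, 75 shares of cells moved, mostly with thinning, and 117 did not, and 8 levels moved without C1q-rich cells and 76 did not. With thinning, Ncf1 in B-cell-like (1.19) and Cybb in smooth-muscle-like cells (-1.50) also passed 2-fold, from 40 and 13 molecules, under the minimum of 50, and without C1q-rich cells Ncf1 in B-cell-like cells passed it and Cybb in fibroblast-like cells no longer did. No result changed sign among called values. Depth limits Ncf1 and Ncf4 most: outside the myeloid and B-cell-like types they rest on under 50 molecules per type.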

Other observations

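Of 172 combinations of listed pathway gene and cell type with at least 50 molecules, 6 (3.49%) were past 2-fold between the pools, near the 3.4% of all genes over the same 6 types. The 6 were antioxidant genes, and no enrichment of that list was tested. Gsr, the glutathione reductase, was higher in macrophage-like cells of the pool labelled Saa3-/- (20.4 and 41.4 CPM, a log2 ratio of 1.02 with a counting interval of 0.40 to 1.63), where 2.08% of genes were past 2-fold. Hmox1 in B-cell-like cells gave 408 and 38.6 CPM, but 97 of its 113 molecules in the pool labelled wild-type lay in 1 cell. Txnrd1 (-1.78) and Prdx1 (-1.05) were also lower in B-cell-like cells of the pool labelled Saa3-/-, as was Gclm (-1.15) in dendritic-cell-like and Hmox1 (-1.34) in fibroblast-like cells. In these 3 types 6.83%, 4.74% and 4.38% of genes were past 2-fold. In macrophage-like cells Hmox1 stood at 543 CPM (513 to 574) and 272 CPM (242 to 303), with 135 of 1222 and 35 of 315 molecules in 1 cell each. None of these differences has a replicate check.

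Rac1, the general Rac GTPase, was spread over blood and wall cells. It stood at 498 and 472 CPM in macrophage-like, 609 and 598 CPM in monocyte-like and 299 and 284 CPM in T-cell-like cells. In the wall it stood at 337 and 334 CPM in fibroblast-like and at 277 and 271 CPM in smooth-muscle-like cells, while Rac2 in the latter was at 38.6 and 56.8 CPM.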
